A study of Mus musculus with 16 samples.

Results

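To describe the chemokines with which a pancreatic cancer cell can attract T cells, the transcripts of 7 ligand genes, Cxcl9, Cxcl10, Cxcl11, Cxcl16, Cx3cl1, Ccl5 and Cxcl12, were followed through every condition of the RNA-seq data. The genes were taken by their symbol, and all 7 were found in both deposited tables, among 56980 features in the IFNγ experiment and 55738 in the untreated experiment. Of the 7 members, 5 passed edgeR's filter on low counts in the IFNγ experiment and 2 in the untreated experiment. Ccl5 and Cxcl12 passed in neither, and the counts of all 7 are given below.

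All cells were KPC1199, a murine pancreatic ductal adenocarcinoma line derived from a KPC mouse, whose alleles include Pdx-cre and Trp53 R172H, so that both genotypes carry these. Control cells carried a non-targeting guide (sgCtrL, WT in the labels) and Sin3B knockout cells carried a single guide (Sin3Bsg1), delivered by lentiCRISPR v2 with puromycin selection, and no clone was named in the sources used here. The untreated experiment has 2 libraries per genotype, and the IFNγ experiment has 3 libraries for each genotype without IFNγ and 3 with 10 ng per ml IFNγ for 24 hours. The samples are cultured cells, and the labels do not say whether replicates came from separate cultures. The methods speak of independent experiments in general, without naming these libraries, so that p-values measure the spread between these libraries, which may be technical.

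Chemokines are small secreted proteins that guide leukocytes along a gradient through G protein-coupled receptors. Cxcl9, Cxcl10 and Cxcl11 share the receptor Cxcr3, which activated CD8+ and Th1 T cells carry, and they are classical targets of IFNγ, which signals through the kinases Jak1 and Jak2. Cxcl16 and Cx3cl1 are made as membrane-bound molecules and are read by Cxcr6 and Cx3cr1, while receptors of Ccl5 include Ccr1 and Ccr3 and Cxcl12 acts through Cxcr4.

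Library totals ran from 18128016 to 27056813 counts in the IFNγ experiment and from 29683126 to 32311629 in the untreated experiment. Values are given as CPM (counts scaled to a common library size, after TMM), and 3 counts in a library, between 0.0927 and 0.162 CPM, were taken as the floor that a count of 0 allows. Replicates were compared by pairs, and 1 library stood apart, sgCtrL with IFNγ replicate 1. Its chi-square, averaged over genes, was 23.2 and 19.5 against the other replicates of its group, which gave 4.12 against each other. Results that rest on it are therefore also given without it. Replicate 1 of Sin3Bsg1 with IFNγ stood apart to a lesser degree, at 6.91 and 9.63, where its fellow replicates gave 3.52. Without that library, the genotype differences with IFNγ were 0.95 for Cxcl9, 0.44 for Cxcl10, 0.39 for Cxcl16 and 0.55 for Cx3cl1 on the log2 scale, and the same 4 members were called. The 6 epithelial markers were expressed in every library, with a summed level of 2988 to 4429 CPM in the IFNγ experiment and 4565 to 6209 CPM in the untreated experiment, which fits the label of a pancreatic tumor cell. Of the macrophage markers only Cd68 was above the floor in every library, and no T cell marker was. The fibroblast markers Pdgfra and Pdgfrb were above the floor in every library too, with group means of Pdgfra from 24.9 to 233 CPM.

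The gene that the guide targets was read first. The guide matched chromosome 8 of GRCm39 at 1 place, bases 73449982 to 73450001 on the + strand, in exon 1 of 19 of the canonical Sin3b transcript. It is shown because it defines the knockout group, with the adjacent NGG motif of Cas9 in capitals.
Sin3Bsg1 target: tggctcccgctggggtcgttCGG
Sin3b (chr8:73449880-73484833, GRCm39) was 80.3, 84.2 and 83.9 CPM in sgCtrL with IFNγ and 33.6, 37.7 and 35.5 CPM in Sin3Bsg1 with IFNγ. The groups did not overlap there, nor without IFNγ or in the untreated experiment, and the log2 fold change was -1.22 with IFNγ, -1.24 without IFNγ and -1.28 in the untreated experiment (edgeR adjusted p = 5.22e-10, 5.11e-10 and 5.41e-11). The transcript was thus lowered and not lost, and small edits in exon 1 are not read by these counts.

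With IFNγ, 4 of the 5 members tested were higher in Sin3Bsg1 than in sgCtrL (Cxcl9, Cxcl10, Cxcl16 and Cx3cl1) and none was lower, where 8.62% of the 14913 genes tested were called higher and 7.9% lower. Without IFNγ, 3 of the members tested had counts, and Cxcl16 and Cx3cl1 were higher, where 7.89% of genes were higher and 9.33% lower. Cxcl9 and Cxcl11 had 0 counts in that arm and could not be called there. In the untreated experiment both members tested, again Cxcl16 and Cx3cl1, were higher, where 15% of 14820 genes were higher and 15.7% lower. The libraries of these called members did not overlap between genotypes, as was the case upward for 15.5% of genes with IFNγ, 18.3% without IFNγ and 31.9% in the untreated experiment. The median log2 fold change of the 5 members between genotypes with IFNγ was 0.42, beside 0.0036 over all genes tested.

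For the response to IFNγ, Cxcl9, Cxcl10 and Cxcl11 passed the filter only through the libraries with IFNγ, so that their rise was a condition of being tested and is given as a description. Both members that were expressed without IFNγ, Cxcl16 and Cx3cl1, rose in each genotype, without overlap of libraries. Over all genes, 15.7% rose and 14.5% fell with IFNγ in sgCtrL, and 16.1% rose and 12.3% fell in Sin3Bsg1. Genes whose libraries lay higher with IFNγ without overlap made up 20.8% in sgCtrL and 24.3% in Sin3Bsg1.

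**Figure D1:**
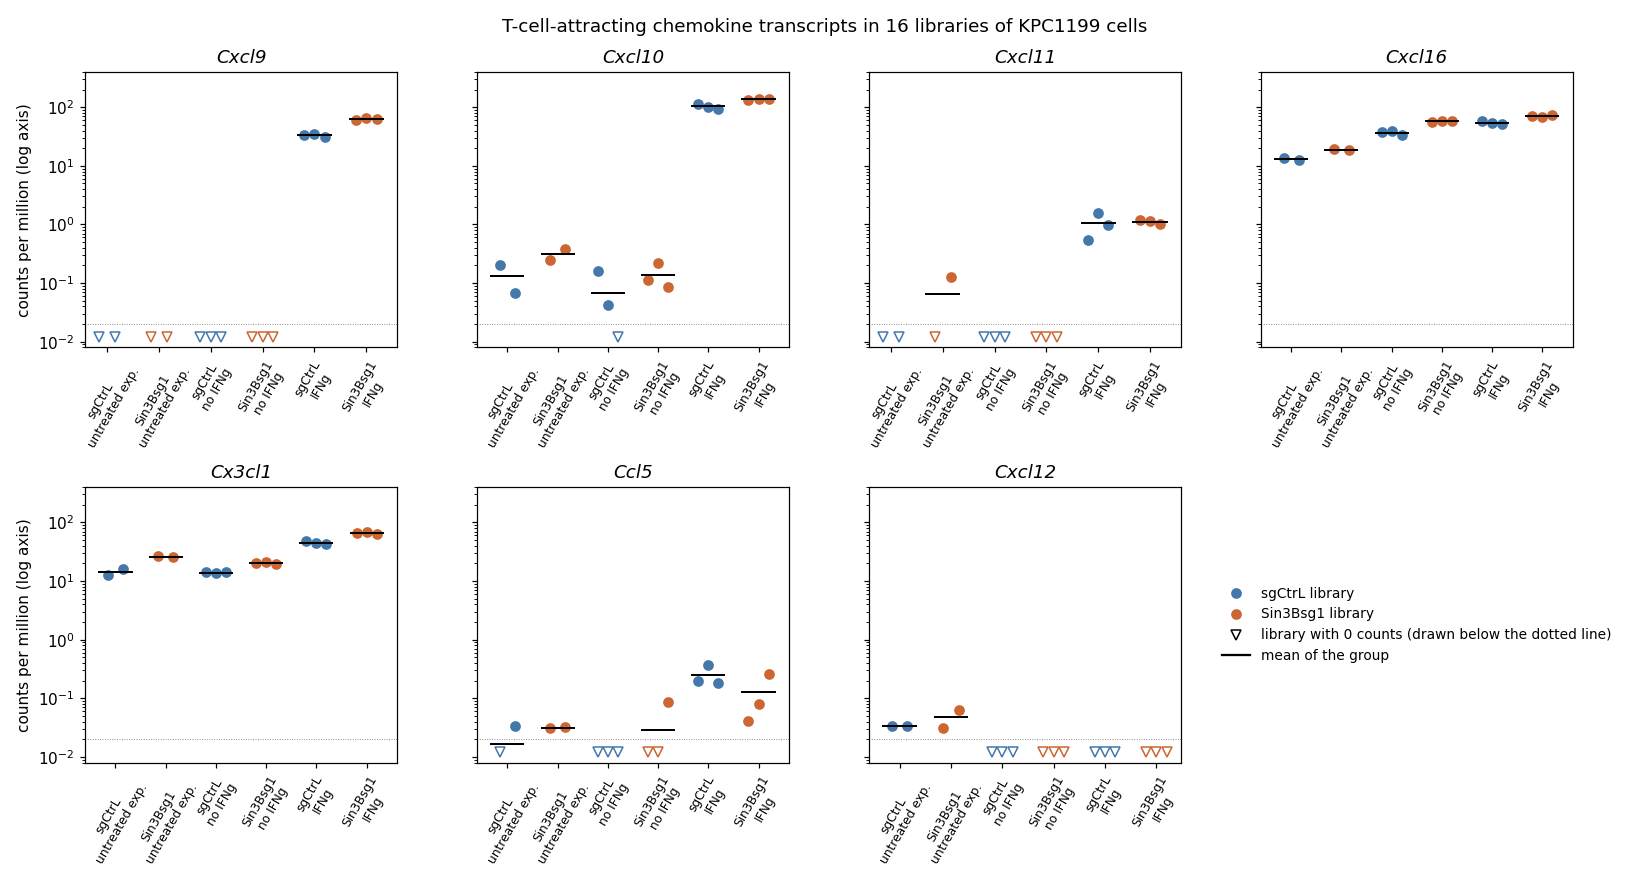
CPM of each member on a log axis, with 1 point per library, a line at the mean of each group and open triangles for libraries with 0 counts. Cxcl9, Cxcl10 and Cxcl11 are at or near 0 in libraries without IFNγ and higher in every library with it, Cxcl16 and Cx3cl1 are present in all 16 libraries, Ccl5 reaches at most 0.377 CPM and Cxcl12 at most 0.0643 CPM.

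The Cxcr3 ligands lie next to each other on the − strand of chromosome 5 in GRCm39, Cxcl9 (ENSMUSG00000029417) at chr5:92469206-92475945, Cxcl10 (ENSMUSG00000034855) at chr5:92494497-92496748 and Cxcl11 (ENSMUSG00000060183) at chr5:92507403-92513344. The RefSeq promoter table (GRCm38.p6) holds 4 of the 7 members, as 300 bases from 250 before to 50 after each start, on the strand of the gene. Those of the 2 most abundant Cxcr3 ligands are shown because these genes went from near 0 to their highest level with IFNγ. Capitals mark matches on either strand to the core of an interferon-stimulated response element (GAAA, then 2 bases of any kind, then GAAA), to TTCNNNGAA, the letters of an IFNγ-activated site, or to the NF-κB consensus.
Cxcl9 promoter (chr5:92328030-92328329, - strand): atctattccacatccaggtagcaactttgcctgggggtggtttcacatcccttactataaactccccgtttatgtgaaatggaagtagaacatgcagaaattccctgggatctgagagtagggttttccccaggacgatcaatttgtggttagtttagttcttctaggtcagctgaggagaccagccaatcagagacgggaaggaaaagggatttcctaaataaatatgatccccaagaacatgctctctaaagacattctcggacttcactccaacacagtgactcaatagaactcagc
Cxcl10 promoter (chr5:92348840-92349139, - strand): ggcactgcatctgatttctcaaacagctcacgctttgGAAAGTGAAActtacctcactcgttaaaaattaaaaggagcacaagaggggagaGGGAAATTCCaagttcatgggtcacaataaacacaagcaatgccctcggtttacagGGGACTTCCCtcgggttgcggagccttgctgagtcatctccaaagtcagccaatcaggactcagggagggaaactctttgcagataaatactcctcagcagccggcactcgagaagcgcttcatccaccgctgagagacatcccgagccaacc
Cxcl10 held 1 match to the response element core, from 213 to 204 bases before the start, and 2 NF-κB matches, from 159 to 150 and from 103 to 94 bases before it, and none overlapped another. Over the 32851 promoters of the table, 3.44% held the response element core, 8.3% held TTCNNNGAA and 4.51% held the NF-κB consensus. The Cxcl9 window held no match to these letters.

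Cxcl9, a T cell attractant that depends on IFNγ, was not detected without IFNγ. It had 0 counts in all 10 libraries without IFNγ, 6 of the IFNγ experiment and 4 of the untreated experiment. With IFNγ it was 33.5, 35.3 and 30.7 CPM in sgCtrL and 61.4, 65.6 and 63.0 CPM in Sin3Bsg1. The groups did not overlap, and every Sin3Bsg1 library was above every sgCtrL library. The means were 33.1 ± 2.34 and 63.3 ± 2.09 CPM (SD, n = 3), a log2 fold change of 0.93 (SE 0.068, edgeR adjusted p = 2.61e-06). Without sgCtrL with IFNγ replicate 1 it was 0.95 (edgeR adjusted p = 5.1e-07). Against the floor, Cxcl9 was at least 222-fold higher with IFNγ in sgCtrL and at least 509-fold higher in Sin3Bsg1. These bounds do not compare the genotypes, because both rest on 0 counts without IFNγ, and the difference between the 2 responses could not be measured for Cxcl9.

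Cxcl10, which the same T cells follow and which many cell types make on exposure to interferons, was the most abundant member with IFNγ. Without IFNγ it had 3, 1 and 0 counts in the sgCtrL libraries and 3, 5 and 2 in the Sin3Bsg1 libraries, at or near the floor. With IFNγ it was 112, 102 and 94.3 CPM in sgCtrL and 132, 140.4 and 139 CPM in Sin3Bsg1, and again the groups did not overlap. The genotype difference with IFNγ was 0.42 on the log2 scale (SE 0.071, edgeR adjusted p = 7.04e-04), from 103 ± 8.97 to 137 ± 4.57 CPM (SD, n = 3). It was 0.50 without sgCtrL with IFNγ replicate 1 (edgeR adjusted p = 1.11e-05). The summed counts rose 1568-fold in sgCtrL (95% counting interval 612 to 5756) and 995-fold in Sin3Bsg1 (541 to 2076). These intervals are exact binomial, cover counting error only and overlap. Leaving out sgCtrL without IFNγ replicate 1, which held 3 of the 4 counts, moved the fitted log2 response in sgCtrL from 10.50 to 11.80. Art3, which shares 133 exon bases with Cxcl10 on the other strand, had 0 to 7 counts in a library. Without IFNγ the genotypes were not distinguished for Cxcl10, with a log2 fold change of 1.02 (95% interval -0.64 to 2.67, edgeR adjusted p = 0.429). It was 2.31 without sgCtrL without IFNγ replicate 1, 0.53 without replicate 3 of that group and 0.59 without Sin3Bsg1 without IFNγ replicate 2, and was called in none of these. In the untreated experiment the counts were 6 and 2 in sgCtrL and 8 and 12 in Sin3Bsg1, which is under the filter and was not tested.

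Cxcl11, the third Cxcr3 ligand, rose with IFNγ to a low level at which no genotype difference was detected. GENCODE marks its transcript with a loss of function in the reference strain, so that its level is not taken here as a measure of protein. It had 0 counts in the 6 libraries without IFNγ, then 11, 42 and 22 counts in sgCtrL with IFNγ and 29, 28 and 24 in Sin3Bsg1 with IFNγ. The Sin3Bsg1 libraries lie within the range of the sgCtrL libraries. The means were 1.04 ± 0.521 and 1.12 ± 0.0905 CPM (SD, n = 3), a log2 fold change of 0.088 (95% interval -0.82 to 1.0, edgeR adjusted p = 0.923). The lowest of the sgCtrL values came from replicate 1, and without that library the difference was -0.19 (edgeR adjusted p = 0.813). Against the floor, Cxcl11 with IFNγ was at least 6.98-fold higher for sgCtrL cells, and for Sin3Bsg1 cells at least 9.02-fold higher. The feature has a deposited length of 3794 bases in the IFNγ table and 1581 bases in the untreated table, where it had 0 and 0 counts in sgCtrL and 0 and 4 in Sin3Bsg1, so that its level was not compared between tables. Gm2673, a processed pseudogene on the other strand that shares 1582 exon bases with Cxcl11, had 0 counts in every library.

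Cxcl16, which exists as a membrane-bound and as a shed form and guides Cxcr6-carrying T cells, was expressed in every library and was higher in Sin3Bsg1 in all 3 arms. Without IFNγ it was 37.2, 39.3 and 34.1 CPM in sgCtrL and 54.9, 58.0 and 58.1 CPM in Sin3Bsg1. With IFNγ it was 57.8, 53.2 and 51.1 CPM in sgCtrL and 70.2, 68.8 and 72.7 CPM in Sin3Bsg1. Untreated, it was 13.7 and 12.5 CPM in sgCtrL and 19.01 and 18.3 CPM in Sin3Bsg1. The genotypes did not overlap in any arm, and the level of Sin3Bsg1 without IFNγ was close to that of sgCtrL with IFNγ, with overlapping libraries. The genotype difference on the log2 scale was 0.63 without IFNγ (SE 0.062, edgeR adjusted p = 3.1e-06), 0.39 with IFNγ (SE 0.059, edgeR adjusted p = 2.67e-04) and 0.51 in the untreated experiment (SE 0.088, edgeR adjusted p = 3.44e-04). Without sgCtrL with IFNγ replicate 1 the difference with IFNγ was 0.45.

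The response of Cxcl16 to IFNγ was small. It was 1.46-fold in sgCtrL (log2 0.55, SE 0.062, edgeR adjusted p = 5e-06) and 1.24-fold in Sin3Bsg1 (log2 0.31, SE 0.059, edgeR adjusted p = 8.97e-04), and 0.49 on the log2 scale in sgCtrL without its replicate 1. The difference between the responses, Sin3Bsg1 minus sgCtrL, was -0.24 (95% interval -0.42 to -0.058), which did not pass the adjustment over all genes (edgeR unadjusted p = 0.0132, adjusted p = 0.745). It was -0.19 without sgCtrL with IFNγ replicate 1 (edgeR adjusted p = 0.529). Cxcl16 (ENSMUSG00000018920, chr11:70344517-70352620, GRCm39, − strand) shares 2132 exon bases with Zmynd15 and 2213 with Med11, both on the other strand, and the strand setting of the counting was not given in the sources used here. Zmynd15 took 9.69 to 19.3% of the counts of the pair. With Cxcl16 and Zmynd15 summed, the Cxcl16 genotype differences were 0.59, 0.35 and 0.43 in the same order as above, and all passed the test. The counts of Med11 were not part of this sum and were not examined.

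Cx3cl1, the membrane-bound ligand also called fractalkine, which holds and attracts Cx3cr1-carrying effector T cells, NK cells and monocytes, was likewise expressed throughout, rose with IFNγ in both genotypes and was higher in Sin3Bsg1 in all 3 arms. Without IFNγ it was 14.1, 13.6 and 14.1 CPM in sgCtrL and 20.6, 21.1 and 19.6 CPM in Sin3Bsg1. With IFNγ it was 47.9, 43.7 and 43.3 CPM in sgCtrL and 66.7, 67.7 and 64.1 CPM in Sin3Bsg1. The 4 groups did not overlap, in the order sgCtrL without, Sin3Bsg1 without, sgCtrL with and Sin3Bsg1 with IFNγ. The genotype difference was 0.55 without IFNγ (SE 0.064, edgeR adjusted p = 1.59e-05) and 0.56 with IFNγ (SE 0.054, edgeR adjusted p = 2.66e-06), or 0.62 without sgCtrL with IFNγ replicate 1. In the untreated experiment Cx3cl1 was 12.9 and 15.95 CPM in sgCtrL and 26.6 and 25.3 CPM in Sin3Bsg1, a difference of 0.85 (SE 0.094, edgeR adjusted p = 5.73e-06). IFNγ raised it 3.23-fold in sgCtrL and 3.24-fold in Sin3Bsg1 (edgeR adjusted p = 3.03e-12 and 1e-12). The responses differed by 0.0048 on the log2 scale, with a 95% interval from -0.18 to 0.19 (edgeR adjusted p = 0.999), so that differences within these bounds cannot be set apart from 0.

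The gene of Cx3cl1 (ENSMUSG00000031778) lies at chr8:95498637-95509055 on the + strand of GRCm39. It shares 427 exon bases with 1700121C10Rik, a long noncoding RNA on the other strand whose counts were not examined. The Cx3cl1 promoter is shown for comparison with the Cxcr3 ligands because the gene had a sizeable level without IFNγ. Neither this promoter nor that of Cxcl12 held a match to the 3 motifs.
Cx3cl1 promoter (chr8:94771930-94772229, + strand): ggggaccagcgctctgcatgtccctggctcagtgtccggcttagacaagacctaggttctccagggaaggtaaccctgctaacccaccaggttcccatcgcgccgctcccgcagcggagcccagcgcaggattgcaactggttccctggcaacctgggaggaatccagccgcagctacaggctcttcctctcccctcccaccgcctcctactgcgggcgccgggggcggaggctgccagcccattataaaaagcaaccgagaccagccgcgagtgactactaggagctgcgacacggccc

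**Figure D2:**
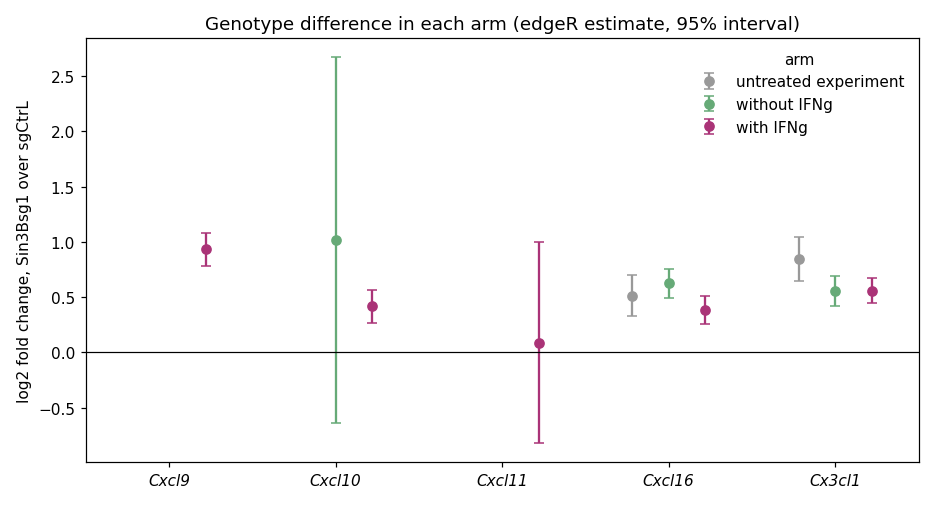
Log2 fold change of Sin3Bsg1 over sgCtrL with edgeR's 95% interval, for the untreated experiment, without IFNγ and with IFNγ. A member is drawn in an arm if it passed the filter on low counts in that experiment and had counts in the arm. A missing point therefore does not mean that no counts were found. Cxcl16 and Cx3cl1 lie above 0 in every arm. Cxcl9, which is drawn only with IFNγ, and Cxcl10 with IFNγ also lie above 0. The intervals of Cxcl11 and of Cxcl10 without IFNγ span 0.

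Ccl5, also called RANTES, a ligand of memory and effector T cells, stayed near the floor. It had 0, 0 and 0 counts without and 4, 10 and 4 counts with IFNγ in sgCtrL, and 0, 0 and 2 without and 1, 2 and 6 with IFNγ in Sin3Bsg1. The genotypes overlapped with IFNγ. In sgCtrL this is at least 1.69-fold higher with IFNγ against the floor, and in Sin3Bsg1 the ratio of summed counts was 4.53 with a counting interval of 0.938 to 43.1, which includes no change. Ccl5 in the untreated libraries had 0 and 1 counts in sgCtrL and 1 and 1 in Sin3Bsg1. With no filter on low counts, the number of members called for IFNγ in sgCtrL went from 5 to 6, Ccl5 being the added one.

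Cxcl12, the stromal ligand of Cxcr4 that fibroblasts are known to make and that can hold T cells away from tumor cells, was silent at this depth. It had 0 counts in all 12 libraries of the IFNγ experiment and 1 or 2 counts in each of the 4 untreated libraries. No difference was detectable between genotypes or with IFNγ, and no fold is given because every group was at or under the floor. Its gene (ENSMUSG00000061353) lies at chr6:117144945-117158328 on the + strand, and that of Ccl5 (ENSMUSG00000035042) at chr11:83416602-83425942 on the − strand of GRCm39.

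**Figure D3:**
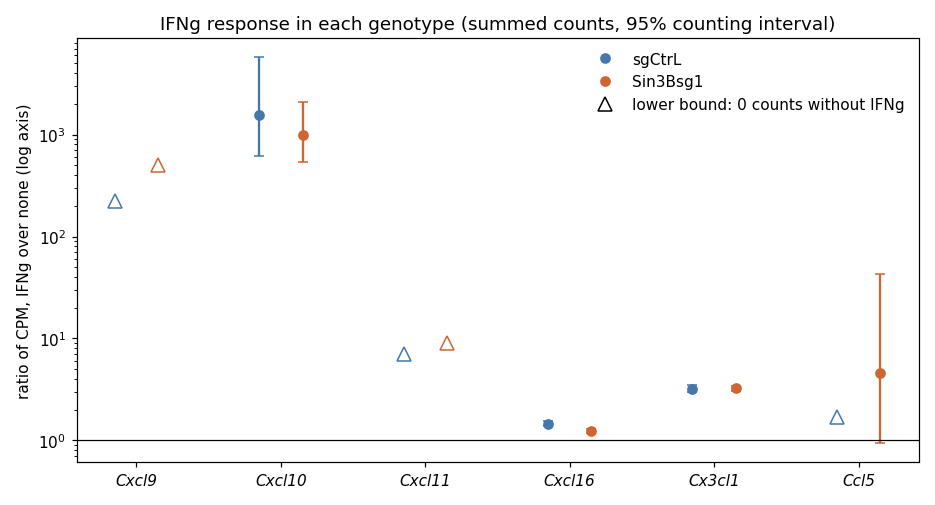
Ratio of CPM with IFNγ over CPM without it, from summed counts, for each genotype on a log axis, with 95% counting intervals, and open triangles for lower bounds where no count was found without IFNγ. Cxcl10 lies at 1568-fold in sgCtrL and 995-fold in Sin3Bsg1, Cxcl9 is drawn as a lower bound and cannot be ranked against it, and Cxcl12 is not drawn because it had no counts.

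Whether the response to IFNγ differed between genotypes was measurable for 3 members, Cxcl10, Cxcl16 and Cx3cl1. None passed the adjusted threshold with edgeR or with DESeq2, 1 of 3 (Cxcl16) had an unadjusted edgeR p under 0.05, and 0.114% of all genes were called. For Cxcl10 the difference was -0.60 (95% interval -2.22 to 1.02, edgeR adjusted p = 0.986), with only 4 and 10 counts without IFNγ behind it. Leaving out 1 library at a time moved it between -1.90 (without sgCtrL without IFNγ replicate 1) and -0.11 (without replicate 3 of that group), with no call. For Cxcl9 the higher level in Sin3Bsg1 with IFNγ can thus not be set against a difference without IFNγ.

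To compare levels between genes, TPM (transcripts scaled by length and to a common total) were computed from the deposited gene lengths. The 7 members summed to 39.3 ± 1.86 TPM in sgCtrL and 61.1 ± 1.82 TPM in Sin3Bsg1 without IFNγ (SD, n = 3), and to 290.3 ± 21.9 and 404 ± 5.55 TPM with IFNγ. The makeup moved from Cxcl16 and Cx3cl1, which held 76.2% and 23.5% of the sum in sgCtrL without IFNγ, to Cxcl10, which held 67.2% in sgCtrL and 64.6% in Sin3Bsg1 with IFNγ. In sgCtrL with IFNγ the order by TPM was Cxcl10 (195), Cxcl16 (41.6), Cx3cl1 (28.2), Cxcl9 (23.8), Ccl5 (0.981) and Cxcl11 (0.568). Here neighbours did not overlap between libraries, other than Ccl5 and Cxcl11. In Sin3Bsg1 with IFNγ the order was Cxcl10 (261), Cxcl16 (54.4), Cxcl9 (45.6), Cx3cl1 (41.6), Cxcl11 (0.618) and Ccl5 (0.488), and again only the last 2 overlapped. Cxcl9 thus stood below Cx3cl1 in TPM in the 3 sgCtrL libraries and above it in the 3 Sin3Bsg1 libraries. This change of order rests on the deposited lengths. In CPM, which is not scaled by length, the mean of Cxcl9 with IFNγ was below that of Cx3cl1 in both genotypes. The means were 33.1 against 45.0 CPM in sgCtrL and 63.3 against 66.2 CPM in Sin3Bsg1.

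The ratio of Cxcl9 to Cx3cl1 in TPM was 0.802, 0.926 and 0.812 in sgCtrL and 1.06, 1.11 and 1.13 in Sin3Bsg1. That of Cxcl9 to Cxcl10 was 0.113, 0.131 and 0.123 in sgCtrL and 0.176, 0.177 and 0.172 in Sin3Bsg1, and that of Cxcl9 to Cxcl16 was 0.541 to 0.620 and 0.810 to 0.890. For each of these 3 ratios the groups did not overlap, with an exact permutation p of 0.1 (two-sided), the smallest that 3 libraries against 3 can give. A ratio within a library does not depend on its depth or scaling, and it was higher in Sin3Bsg1 for Cxcl9 against each of these members. These ratios restate the larger genotype difference of Cxcl9 in the same libraries and are not a separate test of it.

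In the untreated experiment the sum was 19.2 ± 0.559 TPM in sgCtrL and 31.1 ± 0.482 TPM in Sin3Bsg1 (SD, n = 2). The order of the leading pair differed there between genotypes. Cxcl16 held 51.8% and Cx3cl1 46.4% of the sum in sgCtrL, where their libraries overlapped in TPM, and Cx3cl1 held 51.7% and Cxcl16 45.7% in Sin3Bsg1, where they did not. Cxcl16 had 13.1 CPM in untreated sgCtrL cells and 36.9 CPM in sgCtrL cells of the IFNγ experiment without IFNγ, but the tables were made and scaled apart, and this was not tested.

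**Figure D4:**
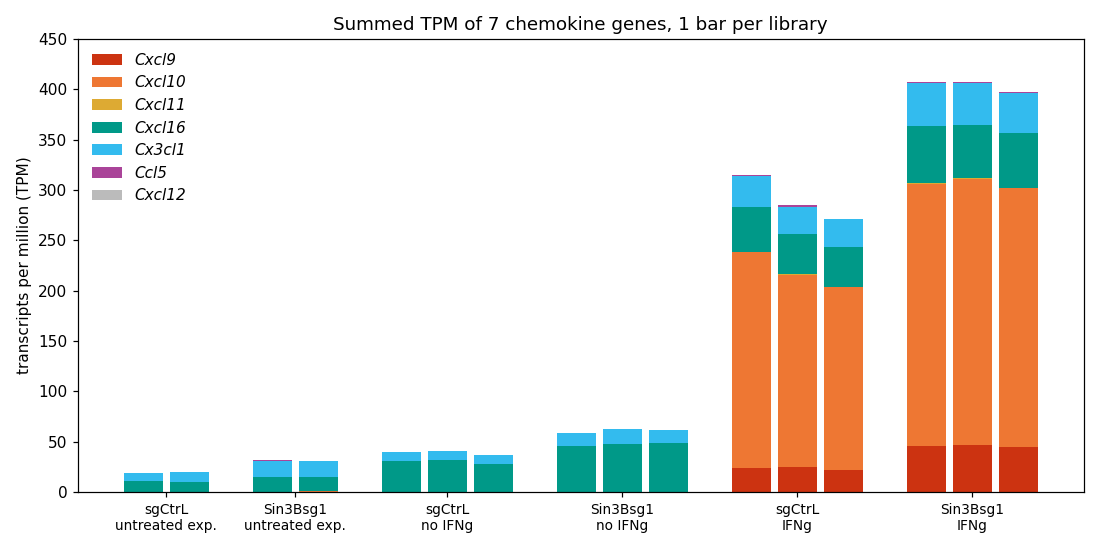
TPM of the 7 members stacked in 1 bar per library, in the 6 groups. The sum is 18.8 to 62.3 TPM without IFNγ and 272 to 407 TPM with it, where Cxcl10 makes up most of each bar and the Sin3Bsg1 bars are all above the sgCtrL bars.

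Genes that receive or process these ligands were counted next, from lists chosen for their known roles. Of 10 receptors of the members, only Ackr3, a scavenger of Cxcl11 and Cxcl12, passed the filter. Ackr3 fell with IFNγ, from 48.0 to 32.1 CPM in sgCtrL (log2 -0.58, edgeR adjusted p = 7.22e-05) and from 50.7 to 29.1 CPM in Sin3Bsg1 (log2 -0.80, edgeR adjusted p = 2.17e-06). It was lower in Sin3Bsg1 in the untreated experiment, at 24.9 against 45.9 CPM (log2 -0.88, edgeR adjusted p = 2.53e-08), and was not called between genotypes in the IFNγ experiment. Of the proteases that release Cxcl16 and Cx3cl1 from the membrane, Adam10 rose slightly with IFNγ in both genotypes (log2 0.16 and 0.19, edgeR adjusted p = 0.012 and 0.00348). Adam17 was lower in Sin3Bsg1 in the untreated experiment only among the contrasts tested (log2 -0.14, edgeR adjusted p = 0.00452), and the difference between experiments was not tested. Dpp4, which trims the ends of Cxcr3 ligands, did not pass the filter.

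Of the 12 genes of IFNγ signalling and chemokine transcription, 11 were tested. Over all genes tested, IFNγ raised 15.7% and lowered 14.5% in sgCtrL, and raised 16.1% and lowered 12.3% in Sin3Bsg1. Of the list it raised 6 and lowered 1 in each genotype, with a median log2 fold change of 0.23 in sgCtrL and 0.25 in Sin3Bsg1. Among those that rose were Socs1, a feedback inhibitor of the IFNγ receptor, and Stat2 and Irf1, which act at interferon-responsive promoters. Socs1 rose by 4.16 and 4.12, Stat2 by 3.82 and 3.89 and Irf1 by 3.51 and 3.57 on the log2 scale in sgCtrL and Sin3Bsg1 (largest edgeR adjusted p of these = 3.86e-14).

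Between genotypes with IFNγ, 1 of the 11 was called, Irf9, a DNA-binding partner of Stat2, at 73.0 against 61.1 CPM (log2 0.26, edgeR adjusted p = 0.00731). Over all genes tested, 8.62% were higher and 7.9% lower in this arm, so that 1 of 11 does not stand out. The median of the list was 0.0096, beside 0.0036 over all genes. Irf1 differed by 0.063 (edgeR adjusted p = 0.286) in the same arm. Whether any gene of this list has a part in the chemokine differences was not tested. Without IFNγ only Jak2 of the 11 was called, a kinase of the IFNγ receptor, at 142 against 116 CPM (log2 0.29, edgeR adjusted p = 3.13e-04). There 7.89% of all genes tested were higher and 9.33% lower, so that this count does not stand out either. In the untreated experiment 2 of the 11 were higher and 3 lower in Sin3Bsg1, where 15% of all genes were higher and 15.7% lower. Jak2 was among the higher, at 81.2 against 69.0 CPM (log2 0.23, edgeR adjusted p = 2.63e-04). Among the lower were Jak1, at 215 against 241 CPM, and Nfkb1, at 101 against 109 CPM.

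Of 31 chemokine ligands outside the 7 members, 14 were tested in the IFNγ experiment and 10 in the untreated experiment. IFNγ raised 4 and lowered 2 of the 14 in each genotype, beside 15.7% raised and 14.5% lowered over all genes in sgCtrL, with a median of 0.19 in sgCtrL and -0.037 in Sin3Bsg1. Those that rose were the monocyte attractants Ccl2, Ccl7 and Ccl8 and the neutrophil attractant Cxcl2. Without IFNγ, Ccl8 had 0 summed counts in sgCtrL and 1 in Sin3Bsg1, and in sgCtrL it was at least 21.4-fold higher with IFNγ. It thus passed the filter only through the libraries with IFNγ, so that its place among the 4 was a condition of being tested. Ccl7 rose by 2.20 and 1.81 on the log2 scale in sgCtrL and Sin3Bsg1 (edgeR adjusted p = 7.54e-05 and 1.88e-04). Ccl2 rose from 5.35 to 16.3 CPM and Cxcl2 from 0.765 to 2.18 CPM in sgCtrL. Those that fell were Cxcl5, a neutrophil attractant, and Ccl9, which went from 4.17 to 1.47 CPM in Sin3Bsg1 (edgeR adjusted p = 9.05e-06).

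Between genotypes, Ccl20, the ligand of Ccr6, was higher in Sin3Bsg1 without IFNγ, at 6.93 against 2.36 CPM (log2 1.56, edgeR adjusted p = 2.57e-04), and with IFNγ, at 6.15 against 3.09 CPM (log2 0.97, edgeR adjusted p = 0.00834). These values are from the IFNγ experiment. In the untreated experiment Ccl20 was near the floor, with 10 summed counts in sgCtrL and 5 in Sin3Bsg1, and was not tested. Ccl9 was lower in Sin3Bsg1 with IFNγ (log2 -0.60, edgeR adjusted p = 0.042). The median genotype difference of this list with IFNγ was -0.096, beside 0.42 for the members. In the untreated experiment 3 of the 10 tested were higher, beside 15% of all genes. They included Cxcl5 (log2 0.26, edgeR adjusted p = 3.12e-05) and Cxcl3 (log2 1.11, edgeR adjusted p = 0.0332). Neither was called between genotypes in the IFNγ experiment. There Cxcl5 was 784 against 794 CPM without and 565 against 599 CPM with IFNγ in Sin3Bsg1 and sgCtrL. Cxcl3 was 3.47 against 3.05 CPM without and 3.56 against 4.07 CPM with IFNγ.

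Markers of cell identity moved with the genotype as well. Of the 6 epithelial markers, 3 were higher in Sin3Bsg1 without IFNγ, 5 with IFNγ and 6 in the untreated experiment. Over all genes tested, 7.89%, 8.62% and 15% were higher in the same arms. The summed level of the epithelial markers with IFNγ was 3163 to 3690 CPM in sgCtrL and 4178 to 4429 CPM in Sin3Bsg1. Of the 6 fibroblast markers Pdgfra was lower in Sin3Bsg1 in each arm, most in the untreated experiment, from 85.5 to 24.9 CPM, while Pdgfrb was higher in both arms of the IFNγ experiment and lower in the untreated experiment, and Dcn and Lum did not pass the filter. The summed fibroblast markers were 184 to 186 CPM in sgCtrL and 160 to 172 CPM in Sin3Bsg1 with IFNγ, and 99.5 to 100.05 and 30.3 to 33.2 CPM in the untreated experiment. Of the 6 macrophage markers, Cd68 was at 4.86 to 7.05 CPM in the libraries with IFNγ, and the other 5, Ptprc, Adgre1, Csf1r, Itgam and Lyz2, were at 0 in all of them. The summed T cell markers were at most 0.169 CPM and the endothelial markers at most 0.918 CPM in any library. The part of these shifts in the chemokine differences was not tested, and fewer cells of a type and less RNA per cell cannot be told apart in bulk samples.

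Finally, the genes whose pattern was most like that of each member were taken as the 3 highest Pearson correlations of log2 CPM over the 12 libraries of the IFNγ experiment, among 10828 genes. The 12 points share the 2 treatments, which set most of each correlation, and r is given as a description. For Cxcl9 these were Ifi206 and Batf2, both near 0 without IFNγ, and Wars, each with a rounded r of at least 0.999. Ifi206 had 13.8 and 21.0 CPM and Batf2 39.4 and 57.9 CPM in sgCtrL and Sin3Bsg1 with IFNγ. For Cxcl10 they were Psmb8, Ddx58 and Znfx1 (r from 0.998 to 0.999), and for Cxcl11 Raph1, Rnf213 and Eif2ak2 (r = 0.994 for each). For Cx3cl1 they were Samd9l and the complement genes C1s1 and C1ra (r from 0.996 to 0.997), where C1s1 had 242 and 381 CPM with IFNγ and 49.8 and 76.2 CPM without it in sgCtrL and Sin3Bsg1. For Cxcl16 they were Crybg1, the complement factor Cfb and Vil1 (r from 0.975 to 0.979), where Cfb had 68.1 and 151 CPM with and 26.4 and 68.5 CPM without IFNγ in sgCtrL and Sin3Bsg1. For Ccl5, whose counts are too low for a pattern to be read, they were a feature without a symbol, Dkc1 and Cbx3 (r from 0.913 to 0.949).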

How the data were processed

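RNA-seq was made from cultured KPC1199 cells, 4 untreated libraries and 12 libraries of the IFNγ experiment. Values deposited by the authors are estimated counts per gene, not normalized and not always whole, in 1 table per experiment with gene lengths and annotation. The labels name fastp, HISAT2, StringTie, DESeq2 and the build mm39, whereas the paper's methods name HISAT2, mm9 and featureCounts on uniquely mapped reads. Which applies to these tables, the versions, the annotation and the strand setting were not given in the sources used here. Columns named after a lacZ guide were read as the sgCtrL libraries, since Sin3Bsg1 is the sole other guide in either table.

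Estimated counts were rounded to whole numbers. Features without a gene symbol took 0.311 to 0.708% of a library's counts and stayed in the fit. Differences were tested with edgeR 4.0.16 in R 4.3.3 (TMM, filterByExpr, glmQLFit, glmQLFTest, two-sided) with Benjamini-Hochberg adjustment over all genes tested, and an adjusted p under 0.05 counted as called. Each table was fitted apart, the IFNγ experiment as 12 libraries with a mean per group. SE is the absolute log2 fold change over the square root of F, and intervals are 95%. Where a group had 0 counts, the bound is its partner's mean CPM over the mean of 3 counts per library. TPM used the deposited lengths. The fits were tested on simulated counts first.

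The members and lists were chosen with earlier results of these data known. Genes named are the 7 members, Sin3b, genes of the lists that passed the threshold at 1 CPM or more in a group (at most 4 per list and contrast, largest change first), and the 3 genes most like each member at 5 CPM or more, on log2 CPM with a prior count of 2. Other genes were named after their values were seen, and some items of the lists are not reported here. Alternatives were DESeq2 1.42.0, RLE size factors, no filter, a replicate block, leaving out each library, fitting only the 6 libraries compared, and, chosen after seeing the data, Cxcl16 and Zmynd15 summed. Replicate numbers did not pair the libraries: correlations of same-numbered deviations in the IFNγ experiment ran from -0.0288 to 0.119. Gene positions are from GENCODE on GRCm39, the guide from the study's list of guides, and promoters from RefSeq (GRCm38.p6). Figures were drawn with matplotlib.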

Additional observations from a re-analysis of the deposited data

How the results depend on the processing

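The number of members called was the same in every contrast under the alternatives run (DESeq2, RLE size factors, no filter, replicate block, each library left out, only the 6 libraries compared), other than IFNγ in sgCtrL without the filter, where 6 in place of 5 were called. Of 375 values of single members under an alternative, 365 kept their direction and their side of the threshold, and the other 10 changed sign without passing the threshold in either form. These were the interaction for Cx3cl1, at -0.0095 with DESeq2, -0.0098 with RLE size factors and -0.032 to 0.053 over the libraries left out, and Cxcl11 between genotypes with IFNγ, at -0.19 to 0.54 over the libraries left out. The 375 values include the IFNγ responses of Cxcl9, Cxcl10 and Cxcl11, whose rise was a condition of being tested. For these the unchanged direction was set in advance and is no sign of stability. Over all genes, those called for the interaction numbered 17, and 32 with DESeq2, 110 without the filter and 1 to 33 over the libraries left out (33 without sgCtrL with IFNγ replicate 1, 7 without Sin3Bsg1 with IFNγ replicate 1). With only the 6 libraries compared, genes called between genotypes went from 2568 to 3996 without IFNγ and from 2464 to 1500 with IFNγ. The cause was not tested. The replicate block is a check only, since the numbers did not pair the libraries, and it left 4 members called between genotypes with IFNγ and changed no call of a member. Depth limits Cxcl10 without IFNγ, Ccl5 and Cxcl12, which lie at or near 3 counts in a library, and the interaction for Cxcl9 and Cxcl11, which have no count without IFNγ in that experiment.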
